A study of Mus musculus with 17 samples.

Results

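The genes described here are those for the melanocortin receptors Mc3r and Mc4r, the melanocortin receptor accessory protein Mrap2 and the neuropeptide Y (NPY) receptors Npy1r, Npy2r and Npy5r, 6 of the 21887 protein-coding genes of the mouse reference. They were taken as a named list, together with every H3K27ac peak overlapping the RefSeq span of a gene or the 50 kb on either side of it. That rule gave 43 distinct peaks of the 183678 in the deposited list. The tissue was mouse hypothalamus in all 17 samples, and the labels give no genotype, treatment, strain, age or sex. The peak list belongs to 3 bulk CUT&Tag samples labelled as biological replicates, in which an antibody against H3K27ac directs the Tn5 transposase to nucleosomes carrying that mark. The remaining samples, 7 of DNA and 7 of RNA from the single-nucleus Paired-Tag assay, were not analysed here. The list gives 1 set of values for the 3 samples together, so the values below carry no replicate error, no test between samples could be made, and the read depth behind them is unknown.

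Melanocortin peptides cut from the POMC precursor act on MC3R and MC4R, which couple to the stimulatory G protein, and agouti-related peptide (AgRP) blocks them. MC4R neurons of the paraventricular nucleus restrain feeding, MC3R is expressed among others by arcuate neurons, and MRAP2 is a single-pass membrane protein that binds melanocortin receptors and changes their signalling. NPY, released with AgRP from arcuate neurons, promotes feeding largely through Y1 and Y5 receptors, while the Y2 receptor is known as a presynaptic receptor that limits release. All NPY receptors couple to inhibitory G proteins. H3K27ac, acetylation of lysine 27 of histone H3, is found at active promoters and enhancers. In bulk tissue, a mark present in few cells cannot be told apart from a weak mark in many.

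Each of the 6 genes carried an H3K27ac peak at its start, or for Mc4r at an end of its span. A start is the position listed by the RefSeq promoter table, which holds 5 of the 6 genes, and a peak was counted when it came within 1 kb of it. For Mc4r both ends of the span were used. All 6 genes were called, against 68.7% of all protein-coding genes under the same rule, and 5 of 5 genes with a listed start, against 68.3% of such genes. With either end of the span taken for every gene, the shares were 6 of 6 and 69.2%. Each gene also had a peak overlapping its span, as did 74.3% of protein-coding genes. No start peak of the 6 came within 1 kb of the start of another protein-coding gene.

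The start peaks differed in strength. The fold enrichment is the authors' value for each peak, a linear ratio over the background of the peak caller, and −log10 q is the authors' measure of its significance. Npy5r had a fold of 10.9, with a −log10 q of 147. Mrap2 had a fold of 9.57 and the highest −log10 q of the 6 genes, 215. Npy2r had 7.51 with a −log10 q of 115. Npy5r thus stood highest by fold, and Mrap2 by −log10 q. Npy1r had a fold of 7.27 with a −log10 q of 53.3, Mc3r had 6.78 with 81.1, and Mc4r had 4.84 with 23.6. Mc4r was lowest on both measures. Without values per replicate, it cannot be said which neighbours in this order differ.

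Set against the 15042 protein-coding genes with a peak at the start, 4 of the 6 genes lay below the median fold and 2 above it. Their median was 7.39, against 8.84 over all marked genes, whose quartiles were 5.73 and 12.1. Npy5r had a higher fold than 66.6% of marked genes and Mrap2 than 56.1%. The other 4 genes lay below the median of marked genes, Npy2r above 39.3% of them, Npy1r above 37.3%, Mc3r above 33.3% and Mc4r above 18.0%. Width followed another order. The start peak of Npy1r was 2228 bp wide and that of Mc3r 2198 bp, wider than those of 94.7% and 94.2% of marked genes. The peaks of Npy5r (1606 bp), Npy2r (1447 bp) and Mc4r (1324 bp) were closer to the median width of marked genes, 1264 bp. The Mrap2 peak, second by fold, was the narrowest of the 6 at 1080 bp.

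**Figure D1:**
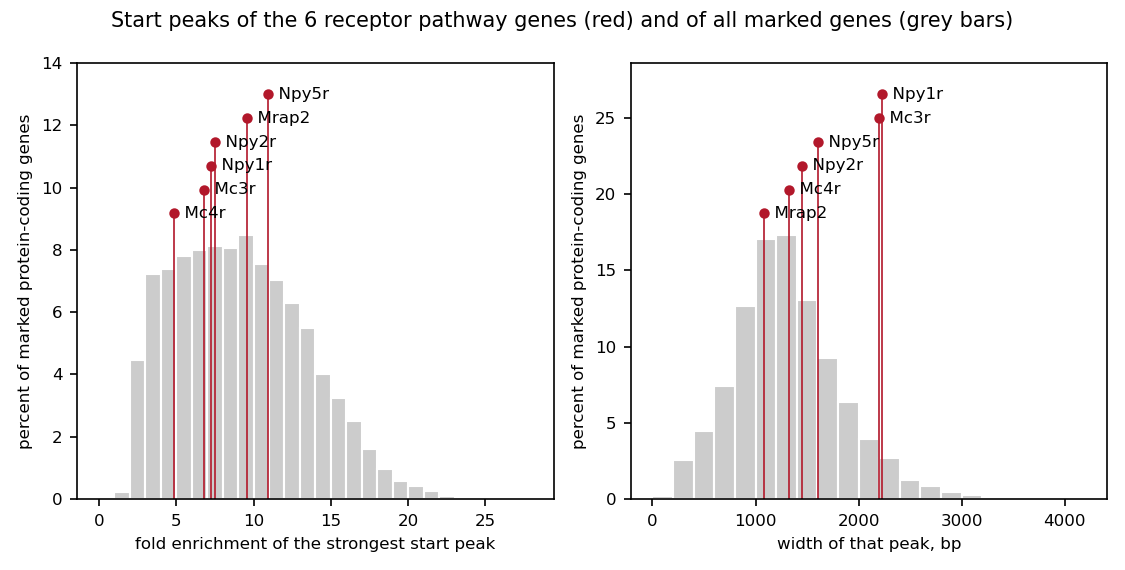
Fold enrichment (left, linear ratio) and width in bp (right) of the strongest start peak of the 6 genes, as red points and lines, over all 15042 marked protein-coding genes, as grey bars in percent of genes. The height of a red point carries no value; the 6 genes span folds of 4.84 to 10.9, and Npy1r and Mc3r stand at the wide end with 2228 and 2198 bp.

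The summits of the start peaks lay just before the listed starts. The summit is the base at which the authors' caller placed the maximum of a peak. It lay 5 bases before the start of Mrap2, 49 before that of Npy5r, 53 before that of Mc3r, 95 before that of Npy2r and 189 before that of Npy1r. For these 5 genes the summit therefore fell within the 250 bases before the start. This was the case for 4797 (27.4%) of the 17492 protein-coding genes with a listed start. Genes without a start peak are counted in that share. The 4797 all lie among the 11948 with a peak within 1 kb of the start, as the 5 genes do. Those 250 bases were covered entirely by peaks at each of the 5 genes. At Mrap2, Npy1r and Npy2r the RefSeq span begins before the listed start, and the summit lies inside the span. The 250 bases of Npy1r and Npy2r lie wholly inside their spans, so there they are not sequence outside the gene.

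The 250 bases before each start are shown because they hold the summits, read 5′ to 3′ on the strand of the gene, from RefSeq, build GRCm38.p6 (mm10). Capitals mark matches to the motifs named below.
Mc3r, chr2:172248242-172248491, plus strand, summit at base 198: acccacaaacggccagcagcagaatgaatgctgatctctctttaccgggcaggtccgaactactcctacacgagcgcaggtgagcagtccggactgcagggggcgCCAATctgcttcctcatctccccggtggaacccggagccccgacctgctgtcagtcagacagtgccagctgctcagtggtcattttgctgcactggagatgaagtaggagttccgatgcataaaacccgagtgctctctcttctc
Mrap2, chr9:87144056-87144305, plus strand, summit at base 246: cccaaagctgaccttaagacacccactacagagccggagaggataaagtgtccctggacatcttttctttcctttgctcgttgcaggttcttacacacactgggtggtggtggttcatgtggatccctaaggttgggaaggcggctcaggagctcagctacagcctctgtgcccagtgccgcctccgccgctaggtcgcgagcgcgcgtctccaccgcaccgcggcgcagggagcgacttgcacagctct
Npy1r, chr8:66697172-66697421, plus strand, summit at base 62: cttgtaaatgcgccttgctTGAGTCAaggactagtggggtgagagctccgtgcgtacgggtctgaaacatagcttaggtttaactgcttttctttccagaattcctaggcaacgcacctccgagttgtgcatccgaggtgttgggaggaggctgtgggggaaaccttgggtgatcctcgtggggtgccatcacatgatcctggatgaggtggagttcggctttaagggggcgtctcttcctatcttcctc
Npy2r, chr3:82548086-82548335, minus strand, summit at base 156: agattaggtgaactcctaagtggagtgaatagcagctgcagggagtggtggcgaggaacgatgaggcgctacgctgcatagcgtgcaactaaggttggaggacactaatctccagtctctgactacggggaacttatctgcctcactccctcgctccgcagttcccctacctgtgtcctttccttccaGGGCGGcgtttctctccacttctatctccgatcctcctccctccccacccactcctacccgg
Npy5r, chr8:66688095-66688344, minus strand, summit at base 202: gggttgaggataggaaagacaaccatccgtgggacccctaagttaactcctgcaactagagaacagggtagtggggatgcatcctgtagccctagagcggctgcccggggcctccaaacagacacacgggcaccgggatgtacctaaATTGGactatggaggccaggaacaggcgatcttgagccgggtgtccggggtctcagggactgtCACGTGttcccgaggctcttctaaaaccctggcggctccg

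None of the 10 motifs searched on both strands was found in all 5 sequences. The Npy5r sequence held an E-box, CACGTG, at bases 211 to 216, just after its summit, and 6.63% of the 21263 promoters of protein-coding genes hold 1 or more in the same 250 bases. It also held a CCAAT box on the opposite strand at bases 148 to 152, and Mc3r held a CCAAT box at bases 106 to 110, a motif found in 35.4% of promoters. Npy1r held an AP-1 match, TGANTCA, at bases 20 to 26, as do 6.13% of promoters. Npy2r held a GC box, GGGCGG, at bases 189 to 194, as do 42.6%. Mrap2 held none of the 10. No match was found at any of the 5 genes for the CRE TGACGTCA or its core TGACG, which the full site contains, for the TATA box TATAAA, the STAT motif TTCNNNGAA, the forkhead motif GTAAACA or the NBRE AAAGGTCA. The full CRE is in 1.92% of promoters, the core in 20.2%, the TATA box in 11.6%, the STAT motif in 6.58%, the forkhead motif in 2.62% and the NBRE in 1.20%.

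All 5 sequences were intermediate in CpG content. The ratio of observed to expected CpG was 0.712 for Mrap2, 0.610 for Npy2r, 0.583 for Mc3r, 0.575 for Npy1r and 0.560 for Npy5r, against a median of 0.530 and quartiles of 0.217 and 0.800 over all promoters. All promoters were split at a ratio of 0.6. Of the 9509 promoters with a ratio of at least 0.6, 96.2% had a peak within 1 kb of the start, against 47.4% of the 11753 below it. Mrap2 and Npy2r are in the higher class, and Mc3r, Npy1r and Npy5r in the lower. These shares describe each class as a whole, and none is given for promoters with ratios near those of the 5 genes. GC content ran from 53.6% for Npy1r to 60.0% for Mrap2, with a median of 55.6% over all promoters.

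Counted over all listed peaks, the 6 genes fell apart into crowded and sparse surroundings beyond their starts. Of the 43 distinct peaks, 38 lay in the windows of Mrap2 and Mc3r. Mrap2 had 22 in its window of 139.816 kb and Mc3r 16 in 102.623 kb, while Npy1r, Npy2r and Npy5r had 2 each and Mc4r had 1. Every gene had at least 1 peak in its window, as did 85.1% of protein-coding genes. Per 100 kb of window this was 15.7 peaks for Mrap2 and 15.6 for Mc3r, against 1.85 for Npy5r, 1.82 for Npy1r, 1.81 for Npy2r and 0.973 for Mc4r. The median over all protein-coding genes was 9.54 peaks per 100 kb, with quartiles of 2.91 and 15.7. The contrast was smaller among peaks with folds at or above the upper quartile of the list, 4.24. Of these, Mrap2 had 6 and Mc3r 3 in the window, against 2 each for Npy1r and Npy5r and 1 each for Npy2r and Mc4r.

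Windows with 2 or fewer peaks, as at Mc4r, Npy1r, Npy2r and Npy5r, were found for 21.2% of protein-coding genes, and for 43.7% of the 2484 genes with no other protein-coding gene in the window, a class that holds Mc3r, Mc4r and Npy2r and in which Mc4r and Npy2r had 2 or fewer. Among these 2484 genes the median was 2.57 peaks per 100 kb, and Mc3r, with 15.6, had a higher density than 87.9% of them. A peak at the start was called for 56.9% of them, and for all 3 of Mc3r, Mc4r and Npy2r. Mc4r had a peak at its end and none elsewhere in its window, which was so for 1.19% of all protein-coding genes and for 8.07% of those marked and without a protein-coding neighbour.

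**Figure D2:**
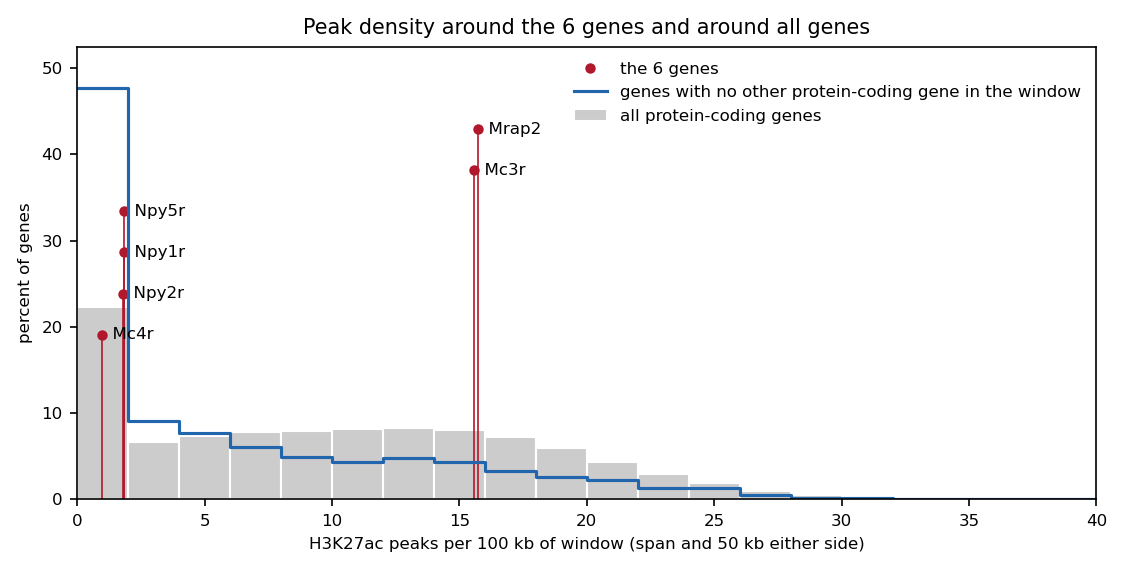
H3K27ac peaks per 100 kb of window (the gene span and 50 kb either side), for the 6 genes as red points and lines, for genes without another protein-coding gene in the window as a blue line, and for all protein-coding genes as grey bars, the last pair in percent of genes. The height of a red point carries no value; Mrap2 and Mc3r stand at 15.7 and 15.6, and the other 4 genes at or below 1.85.

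The Mc3r gene, of a single listed start on the plus strand, spans chr2:172248492-172251114. Its start peak (chr2:172248165-172250362) began before the start and ran through most of the gene, and a narrow peak of 601 bp and fold 2.36 followed at its end (chr2:172250525-172251125). Together the peaks covered 93.8% of the span, a higher share than in 99.8% of the 1629 protein-coding genes of 2 to 4 kb, whose median was 16.1%. That length class was chosen after the values were seen. No other protein-coding gene lies in the window, and the nearest are Fam210b at 94.456 kb and Cbln4 at 205.026 kb.

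Upstream of Mc3r, 7 peaks lay in no annotated gene, with folds of 2.24 to 3.99. The summit nearest to the start was 9.28 kb away, in a peak of fold 3.83, and the next were at 18.2 kb (fold 2.43), 21.2 kb (3.99) and 25.2 kb (3.83). The farther peaks were at 29.2 kb (2.24), 32.4 kb (2.96) and 41.4 kb (3.68). None reached the upper quartile of fold in the list, 4.24, and 4 of the 7 lay above its median of 3.18. Downstream, the stronger peaks overlapped long noncoding RNA genes. A peak of 1925 bp and fold 5.45, with a −log10 q of 43.7, lay 22.9 kb from the start inside Gm40007 (chr2:172269922-172271846). A peak of 684 bp and fold 6.83, with a −log10 q of 51.1, lay 44.4 kb away at a listed start of Gm40008 and within 1 kb of an end of Gm14275 (chr2:172292570-172293253). This peak had a slightly higher fold than the start peak of Mc3r, 6.78, but was narrower.

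None of the other downstream peaks of the Mc3r window reached the upper quartile of fold. They were at 8.09 kb (fold 3.32), at 15.5 kb inside Gm40007 (2.67), and at 33.8 kb (3.76), 35.4 kb (2.82) and 51.2 kb (3.68) in no annotated gene. Over the 13 peaks of the window below the upper quartile of fold, widths ran from 364 to 1023 bp and −log10 q from 3.36 to 18.1. The nearest peaks outside the window were 54.119 kb above the span (fold 2.82) and 107.959 kb below it (fold 4.77).

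Mrap2 spans chr9:87144236-87184051, with its listed start at 87144306 on the plus strand. Its peaks ran along the whole locus. The start peak (chr9:87143969-87145048) was followed after 161 bp by a second of 679 bp and fold 3.79, with a −log10 q of 35.7 (chr9:87145210-87145888). Inside the gene 6 more peaks followed. The strongest were at 34.3 kb from the start (fold 5.15, 1299 bp, −log10 q 42.4, chr9:87178355-87179653) and at 23.2 kb (fold 5.10, 1171 bp, −log10 q 37.0, chr9:87167043-87168213). Next to the peak at 23.2 kb stood another at 25.0 kb (fold 3.70, 1252 bp), and weaker ones were at 9.08 kb (3.25), 33.0 kb (3.23) and 38.2 kb (2.34). Peaks covered 15.8% of the span, against a median of 7.29% over all protein-coding genes.

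Upstream of Mrap2, 5 peaks lay in no annotated gene. The strongest, 1978 bp wide with a fold of 6.76 and a −log10 q of 69.9, lay 28.6 kb before the start (chr9:87114569-87116546). A peak of 593 bp and fold 5.06, with a −log10 q of 25.8, lay 7.99 kb before it (chr9:87136005-87136597). The other 3 were narrow, at 22.2 kb (fold 2.89), 47.0 kb (2.60) and 49.7 kb (2.31). The peak at 28.6 kb thus had the second highest fold of the window. Downstream, 1 peak lay between the genes at 42.5 kb (2.31), and 8 lay inside the neighbouring gene Cep162, which encodes a centrosomal protein of the ciliary transition zone. The strongest of these was at 53.1 kb (fold 5.29, 1018 bp, −log10 q 28.4, chr9:87196652-87197669), and the other 7 had folds of 2.39 to 3.76. The list does not tell which gene a distal peak acts on. Over the 16 peaks of the window below the upper quartile of fold, widths ran from 282 to 1252 bp and −log10 q from 3.74 to 35.7. Just outside the window, peaks stood 54.369 kb below the span (fold 3.82) and 66.0 kb above it, inside Cep162 (fold 3.03).

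**Figure D3:**
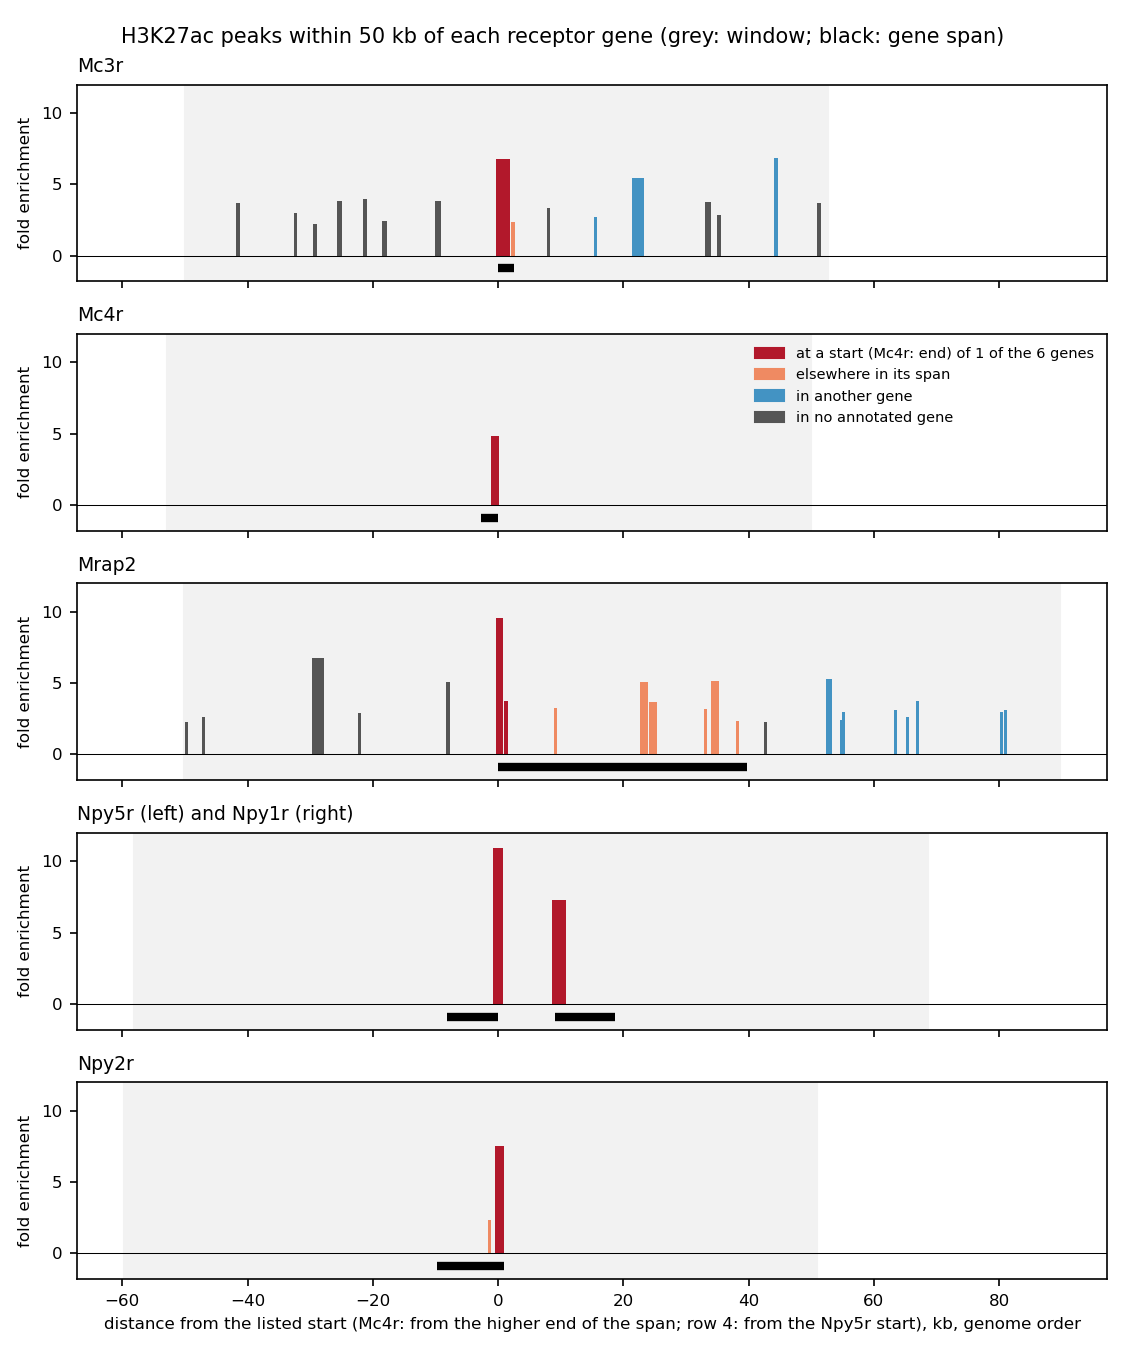
Position (horizontal, kb in genome order from the listed start, from the higher end of the span for Mc4r, and from the Npy5r start in the shared panel of Npy5r and Npy1r) and fold enrichment (vertical, linear ratio) of the peaks within 50 kb of each gene. Bars below 0.5 kb are drawn 0.5 kb wide; Mc3r and Mrap2 have 16 and 22 peaks, while Mc4r, Npy5r with Npy1r, and Npy2r have 1, 2 and 2.

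Npy5r and Npy1r lie head to head, and the list placed 1 peak at the start of each and no other in either window. Npy5r spans chr8:66679965-66688094 on the minus strand and Npy1r chr8:66697149-66706800 on the plus strand, with their listed starts 9328 bp apart. The Npy5r peak (chr8:66687330-66688935) and the Npy1r peak (chr8:66696684-66698911) were separated by 7748 bp without a peak. The Npy5r peak had the higher fold of the pair, 10.9 against 7.27, and the Npy1r peak was the wider, 2228 against 1606 bp. Because each window contains the other gene, the 2 peaks of Npy1r and the 2 of Npy5r are the same peaks. Among 586 pairs of protein-coding genes whose listed starts point away from each other and lie 5 to 15 kb apart, both starts were marked in 55.3%. In 75.3% of those 324 marked pairs no further peak lay between the start peaks. This comparison with other pairs was chosen after the values of Npy5r and Npy1r were seen.

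On either side of this pair the list was empty over long distances. The next peak was 190.645 kb below the Npy5r peak (chr8:66496369-66496684, fold 2.83) and 161.13 kb above the Npy1r peak (chr8:66860042-66860519, fold 11.6), the last overlapping Naf1. The pair thus held the only 2 listed peaks in a stretch of 363.357 kb. Between consecutive peaks of the whole list the median distance was 3.76 kb, and 99.2% and 99.03% of distances were shorter than those flanking the pair. These shares count distances, so they do not give the share of the genome or of genes that lies in such gaps.

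Npy2r stood in a similar gap. It spans chr3:82538383-82548989 on the minus strand, and its start peak (chr3:82547619-82549065) was accompanied by a weak peak of 379 bp, fold 2.34 and −log10 q 8.53, inside the gene 1.29 kb after the start (chr3:82546492-82546870). No other gene is annotated in its window. The next peaks were 139.664 kb below (chr3:82406582-82406827, fold 2.46) and 71.854 kb above (chr3:82620920-82621457, fold 2.67), so that 2 peaks stood in a stretch of 214.092 kb. Peaks covered 16.5% of the Npy2r span, against 18.3% of the Npy1r span and 9.41% of the Npy5r span. Apart from the start peaks of the 3 NPY receptor genes, this weak peak was the only one listed in their windows, of which those of Npy5r and Npy1r overlap.

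Mc4r had the weakest mark of the 6 genes. Its only peak (chr18:66859326-66860649) overlapped the higher end of its span (chr18:66857705-66860487), with the summit 205 bp inside that end, and covered 41.8% of the span. No other gene is annotated within 50 kb, and the nearest protein-coding genes are Gnal at 227.811 kb and Pmaip1 at 392.147 kb. The next peaks stood 117.992 kb below (chr18:66740906-66741333, fold 3.03) and 103.66 kb above (chr18:66964310-66965105, fold 3.39). The Mc4r peak was thus alone in the 222.976 kb between these next peaks. Within 50 kb of its span Mc4r had 1 peak, against 16 for Mc3r, a gene of similar length. Mc3r is likewise without protein-coding neighbours in its window. The 2 windows differ in annotation, since that of Mc3r holds 3 other genes, none protein-coding, and 3 of its 16 peaks overlap such genes. With flanks of 100 kb the counts of Mc4r and Mc3r were 1 and 26. Among peaks within 50 kb with folds at or above the upper quartile of the list they were 1 and 3. The difference between these 2 receptor genes could not be tested.

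Other genes of the pathway, listed by role, were marked at the start in 28 of 36 cases (77.8%, against 68.7% of all protein-coding genes). Their median fold where marked was 6.69, against 8.84 over all marked genes. The gene Asip was not matched by its symbol, and genes without a listed start, among them Agrp, Cpe, Mc2r, Mc5r, Npy6r and Mrap, were placed by the ends of their spans. Among other receptors of the families 2 of 5 were marked. Mc5r had a peak of fold 5.63 and Npy4r, the receptor of pancreatic polypeptide, one of 3.87. Mc1r, the melanocyte receptor, Mc2r, the adrenal receptor of ACTH, and Npy6r had no peak at a start or end, and Npy6r had none in its window. The 6 genes described above and these 5 relatives thus differed in how many were marked, 6 of 6 against 2 of 5, a difference that was not tested, and both lists were drawn up with earlier results of these data known.

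Of 5 genes for ligands of these receptors 2 were marked. Agrp had a fold of 9.70, at a peak that also lay at a start of Atp6v0d1, and Npy had 5.27. Cartpt, counted with them among the 36 genes, encodes an arcuate peptide that is not a known ligand of these receptors, and had 4.41. Pomc, the melanocortin precursor, had no peak within 1 kb of its listed start but 1 of fold 14.8 elsewhere in its span, and Pyy and Ppy, peptides of gut and pancreas, had none in their spans. Of the enzymes that process these peptides 5 of 6 were marked. Cpe, the carboxypeptidase that trims cut prohormones, had 12.3, and Prcp, which inactivates alpha-MSH, had 10.2 at a peak shared with Ddias. The prohormone convertase gene Pcsk1 had 10.2, while Dpp4, whose product cleaves NPY and PYY, had no peak at the start and 2 in its span.

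All 5 genes of accessory proteins were marked, with Atrnl1 at 12.4 and Atrn, which encodes attractin, at 11.8. Mrap, the accessory protein of the ACTH receptor and a paralogue of Mrap2, had the lowest fold of any marked gene in these lists. It was 2.20, at an end of the span, against 9.57 at the listed start of Mrap2. The Mrap span held 4 peaks, with a highest fold of 5.61. Signalling genes were marked in 9 of 10 cases, Kcnj6, which encodes a G protein-gated potassium channel, with 10.2 and Gnai1, an inhibitory G protein subunit, with 9.56. Kcnj13, which encodes the potassium channel Kir7.1, had no peak at the start and 1 of fold 3.11 in its span. Genes that act before or after these receptors in the feeding circuit were all marked, with Bdnf at 5.99 and the leptin receptor gene Lepr at 5.06. The 4 genes of that last list had folds of 4.63 to 5.99, a range below the 6.78 of Mc3r that includes the 4.84 of Mc4r.

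**Figure D4:**
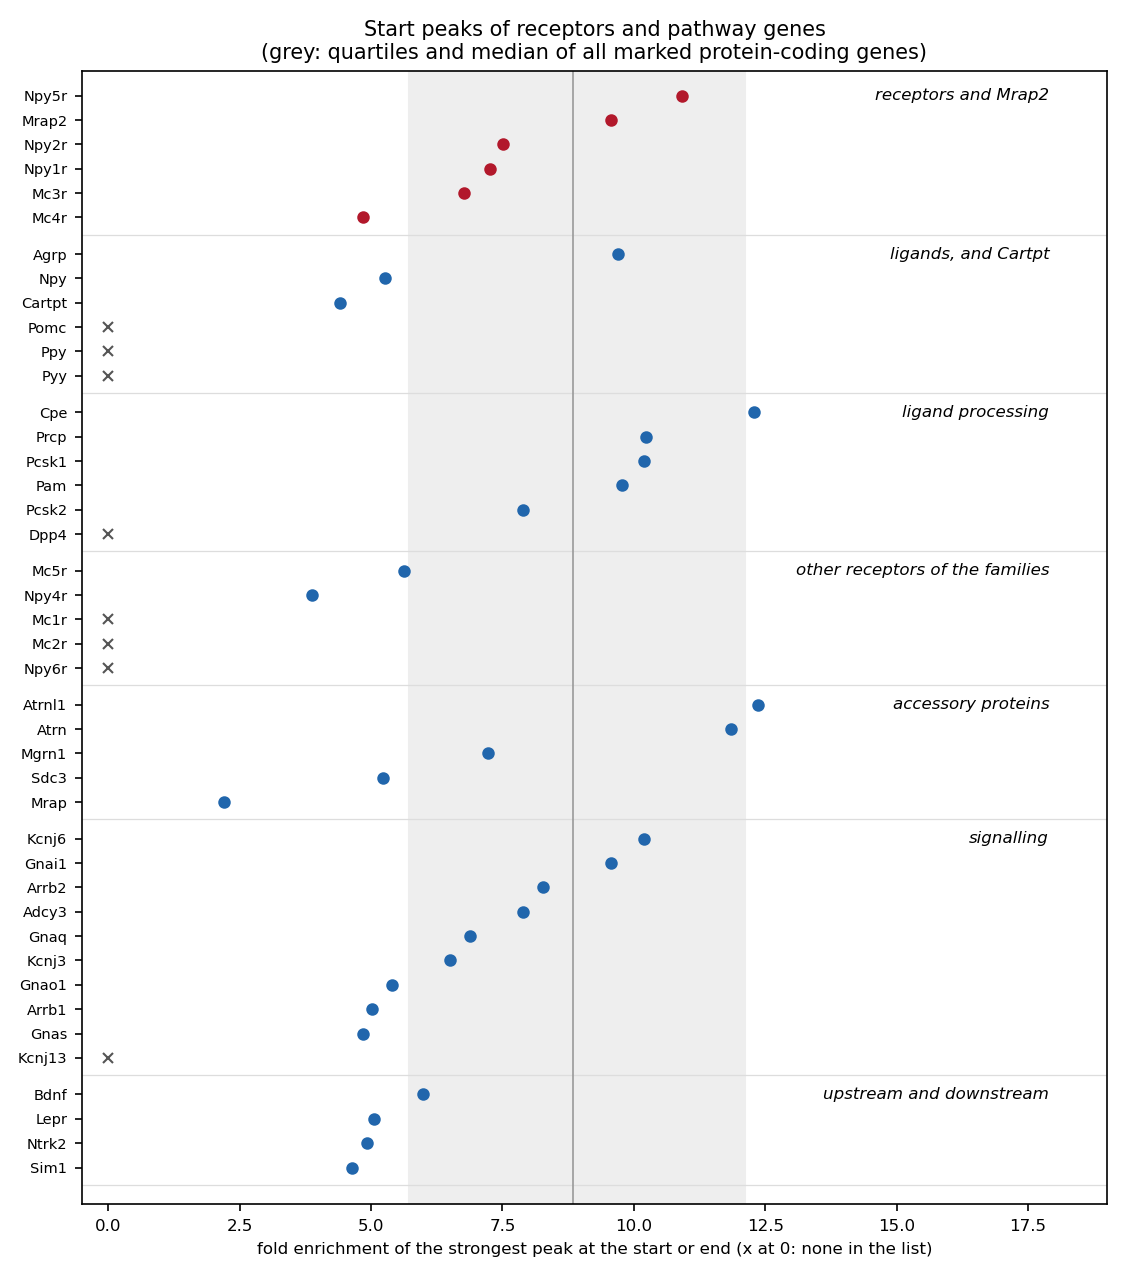
Fold enrichment (horizontal, linear ratio) of the strongest peak at the start, or at an end where no start is listed, for the 6 genes in red and for 36 pathway genes in blue, by role; crosses at 0 stand for genes without such a peak in the list. The grey band and line give the quartiles and median of all marked protein-coding genes, 5.73, 12.1 and 8.84; the 6 genes span 4.84 to 10.9.

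As a check of the tissue, 9 of 10 hypothalamic marker genes had a peak at the start, all but Pmch. Of cortical markers 2 of 5 were marked, of thalamic markers 5 of 5 and of pituitary markers 0 of 7, beside 68.7% of all protein-coding genes. The thalamic share was thus no lower than the hypothalamic one. Where marked, the median fold was 3.83 for hypothalamic, 4.03 for thalamic and 4.81 for cortical markers, against 8.84 over all marked genes. By fold, the hypothalamic markers thus did not stand above the others. Lhx9 is in both the hypothalamic and the thalamic list, and the part of neighbouring tissue in the values above was not tested.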

How the data were processed

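H3K27ac was profiled by CUT&Tag in 3 bulk samples of mouse hypothalamus, grouped by their titles. MACS2, BWA 0.7.17 and build mm10 are named in the submitters' processing notes. How the replicates were combined is not given in the sources used here. Per peak, the deposited list gives the fold enrichment as a linear ratio and a −log10 q. It has no header, and columns were taken as in a narrowPeak file. The score deposited by the authors was not used. The fold and −log10 q served only to describe and rank peaks within the list. Depth is unknown. Peak names run to 295763 while 183678 peaks are listed, so a gene without a peak is one without a listed peak.

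Spans came from RefSeq for GRCm38.p6, and listed starts from its promoter table, for 17492 of 21887 protein-coding genes. Peaks overlapped a window by at least 1 bp. Coordinates are 1-based in mm10. Intervals were handled in Python 3.11.15 with pandas 2.3.3 and numpy 2.4.6, and the search was tested on simulated peaks. The members and gene lists were chosen with earlier results of these data known. In each pathway list the 2 marked genes of highest fold and every unmarked gene are named, and other genes named there were chosen after their values were seen. No test was run, since 1 list stands for all samples.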

Additional observations from a re-analysis of the deposited data

How the results depend on the processing

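All 6 genes kept a peak at the start or end with windows of 500 or 2500 bp, with the summit required in the window, in a stricter set above the median −log10 q of 13.1, in another with folds no lower than the upper quartile, 4.24, and, an alternative chosen after seeing the data, with either end of the span used for every gene (69.2% of all protein-coding genes). Under the same alternatives 26 to 29 of the 36 pathway genes were marked, against 28. A peak inside the span was found for 6 genes under both stricter sets and for 5 with the summit required there, since the summit of Npy5r lies outside its span. A share of all protein-coding genes is given only for the use of either end. The counts under the other alternatives show whether calls for the listed genes changed, and cannot be set against a background. The number of distinct peaks around the 6 genes, 43, was 43 by summit, 64 with flanks of 100 kb, 19 with flanks of 10 kb, 21 above the median −log10 q and 13 in the set of high fold. The last 3 values follow from the shorter flank or the smaller list. Mc4r, Npy1r and Npy5r kept their counts of 1, 2 and 2 in all of these settings. Npy2r had 4 peaks with flanks of 100 kb and 1 in each stricter set, Mc3r had 3 to 26 and Mrap2 had 6 to 31. The lowest counts of Mc3r and Mrap2 were in the set of high fold, where Mc3r stood close to Npy1r and Npy5r. No replicate could be left out, and no paired analysis was possible because the list holds no values per sample.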

Other observations

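Receptor genes of 2 other peptide families were set beside the 6 genes. All 4 opioid receptor genes and all 5 somatostatin receptor genes had a peak at the start, or at an end where no start is listed, as did 68.7% of all protein-coding genes. Where the 6 genes had a median fold of 7.39, the opioid receptor genes had 9.32, with a range of 4.97 to 11.8, and the somatostatin receptor genes 5.50, with a range of 3.19 to 7.90. The median number of peaks within 50 kb was 2 for the 6 genes, 12 for the opioid and 15 for the somatostatin receptor genes, beside 12 over all protein-coding genes. The ranges were similar, 1 to 22 for the 6 genes, 1 to 25 for the opioid and 1 to 25 for the somatostatin receptor genes. In the median of the 6 genes, the same 2 peaks count for both Npy1r and Npy5r. Per 100 kb of window the medians were 1.84 for the 6 genes, 7.02 for the opioid and 14.1 for the somatostatin receptor genes, beside 9.54 over all protein-coding genes. Oprk1, the kappa opioid receptor gene, with a fold of 11.2, and Sstr1, with 5.92, each had a single peak in their windows, as Mc4r had. These values describe 6, 4 and 5 genes, and no difference between the families was tested.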
